A study of Mus musculus with 6 samples.

Results

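Ring1b peaks that crowd together outside the Hox gene clusters are described here in hair follicle stem cells (HFSC) and intestinal stem cells (ISC) of the mouse. The members were chosen by position from the peak lists themselves. Each chromosome was divided into fixed bins of 100 kb, and a bin was kept where it held at least 5 HFSC and at least 5 ISC peaks by midpoint. Peaks inside the 4 windows over the Hox clusters were left out. This gave 49 bins, called domains below, with 387 of the 6754 HFSC peaks and 409 of the 4444 ISC peaks. The peak counts per bin are therefore what defined the domains, and they are given as a description with no test.

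Ring1b is a catalytic subunit of Polycomb repressive complex 1 (PRC1), which attaches ubiquitin to histone H2A and keeps its target genes silent. Together with Polycomb repressive complex 2, PRC1 is known to cover CpG-rich promoters of developmental regulators. At some loci it spreads over many kilobases and brings distant sites into contact. The Hox clusters are the classical example of such a broad Polycomb territory. The domains described here are fixed bins outside them in which called Ring1b sites were crowded in both lists. A crowded stretch that a bin edge divides can be missed.

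The chromatin came from wild-type C57BL/6 mice that the labels' protocols call LGR5-Ring1a/b ++. Lgr5-GFP-positive live single cells were sorted, from anagen-synchronised hair follicles for the HFSC and from intestinal epithelium for the ISC, with 2500000 cells and 10 µg of Ring1b antibody per ChIP. Age, sex and the number of animals pooled were not given in the sources used here. There was 1 library per cell type, so a difference between the lists compares 2 libraries, has no replicate check and gets no test. A peak list shows no expression, so the sorted identity was not checked against marker genes. The number of sequenced reads behind either list is unknown, and the HFSC list was 1.52 times as long as the ISC list.

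The domains held 5.73% of all HFSC peaks and 9.2% of all ISC peaks, with 0.946 HFSC peaks per ISC peak. The Hox windows held 173 HFSC and 157 ISC peaks, a ratio of 1.1, and all other places held 6194 and 3878, a ratio of 1.6. The rule sets the same minimum in both lists, so the ratio in the domains is a description, and it moved with the length of the lists: with the HFSC list shortened to the length of the ISC list by q, 40 domains held 278 HFSC and 339 ISC peaks. More ISC than HFSC peaks were found in 24 domains, more HFSC peaks in 17, and equal numbers in 8. Per domain the HFSC list had 5 to 17 peaks (median 7) and the ISC list 5 to 23 (median 7). The counts of the 2 lists correlated across the 49 domains at Spearman 0.31 and Pearson 0.33, where both counts were bounded from below by the rule.

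The minimum of 5 peaks divided a continuous range. Of the 49 domains, 15 stood at the minimum in at least 1 list, 8 in the HFSC and 10 in the ISC list, and 3 in both. Just outside, 17 bins had 4 ISC peaks and at least 5 HFSC peaks, and 7 bins had 4 HFSC peaks and at least 5 ISC peaks. Many bins reached the minimum in 1 list only. Outside the Hox windows 134 bins had at least 5 HFSC peaks with fewer than 5 ISC peaks, 47 of them with 0 ISC peaks. The reverse was found in 48 bins, 5 of them with 0 HFSC peaks. These counts include the bins with 4 peaks just named, and the HFSC list was 1.52 times as long as the ISC list. The plot of peaks per bin shows this continuum, with the Hox bins reaching the highest counts.

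**Figure D1:**
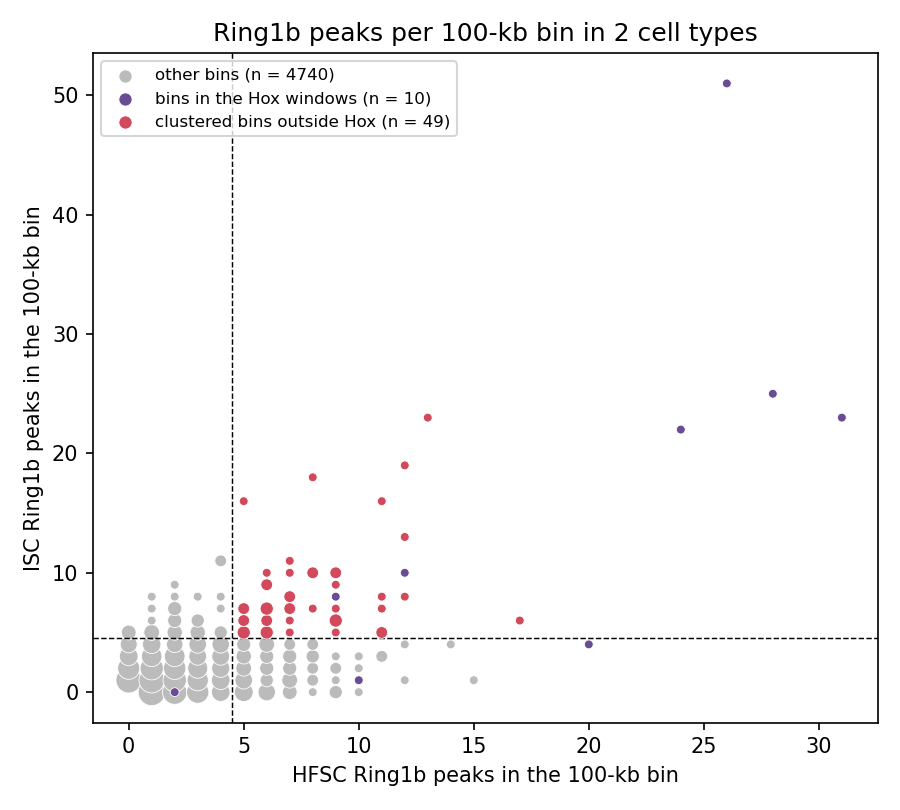
Each point stands for 100-kb bins with the same number of HFSC peaks (horizontal axis) and ISC peaks (vertical axis), and its area grows with the logarithm of the number of bins. The dashed lines mark the minimum of 5 peaks; the 49 domains lie above and to the right of both lines, beside the bins of the Hox windows (purple) and all other bins with a peak (grey).

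The 49 domains made up 1.02% of the 4799 bins that held a peak. They lay on 17 autosomes, with 8 on chromosome 2, 5 on chromosome 5 and 4 each on chromosomes 3, 6 and 8. Chromosomes 15, 18 and X had 0, although 326, 184 and 64 HFSC peaks were called there. No 2 domains were adjacent. From first to last peak the domains spanned 4.87 to 95.7 kb, with a median of 25.6 kb. Of them, 24 spanned under 20 kb and 12 over 50 kb. These spans are bounded by the 100-kb bins, and a bin edge can cut a run of peaks short. The peaks of chr1:78100001-78200000, for example, spanned 14 kb up to the bin's edge, with 4 HFSC and 3 ISC peaks in the neighbouring bins. The narrowest lay on chr4:48055686-48060556, with 5 peaks of each list. Peaks of either list together covered 2426 to 12142 bp per domain (median 5608), so that a median of 5.61% of the 100 kb was under a called peak. In 16 domains the neighbouring bins on both sides held 0 peaks of either list, and 33 had at least 1 peak next door, of which 24 had peaks of both lists there.

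The 10 domains with the most peaks carry the letters A to J here. Domain A, chr14:122800001-122900000, was the most crowded, with 13 HFSC and 23 ISC peaks between positions 122850306 and 122890467. Of these, 12 HFSC and 13 ISC peaks overlapped a peak of the other list by at least 1 bp. Domain B, chr11:118900001-119000000, had 12 HFSC and 19 ISC peaks, spread over 86.2 kb. They fell into 3 groups divided by more than 20 kb without a peak of either list, with 7 HFSC and 15 ISC peaks in the first, 4 and 3 in the next and 1 of each in the last. Domain B was the only one of the 10 with such a gap, which the map of peaks shows.

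Domains C and D lay on chromosome 2. Domain C, chr2:71300001-71400000, had 11 HFSC and 16 ISC peaks within 19.9 kb, and 10 of the HFSC peaks overlapped an ISC peak. It had the largest stretch under peaks of all 49 domains, 12142 bp. Domain D, chr2:105500001-105600000, had 8 HFSC and 18 ISC peaks within 30 kb, and 5 of each overlapped. Its strongest HFSC peak, chr2:105514418-105515891, stood 14.2-fold over the background, and the strongest ISC peak of the domain, 7.94-fold, lay on the same site. Domain E, chr19:43600001-43700000, had nearly equal numbers, 12 HFSC and 13 ISC peaks within 18.1 kb, with 11 and 9 of them overlapping.

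The remaining domains of the 10 differed more in balance. Domain F, chr8:123600001-123700000, had 17 HFSC and 6 ISC peaks, and domain G, chr5:106800001-106900000, had 5 HFSC and 16 ISC peaks. Domain H, chr13:40800001-40900000, had 12 HFSC and 8 ISC peaks, of which 10 and 6 overlapped. Domain I, chr12:74100001-74200000, and domain J, chr16:94000001-94100000, each had 9 HFSC and 10 ISC peaks, within 16.6 and 17.5 kb. In domain I the strongest HFSC peak was 2709 bp wide and stood 17.5-fold over the background, while the strongest ISC peak, 506 bp wide and 9.86-fold, lay 7907 bp away from summit to summit.

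**Figure D2:**
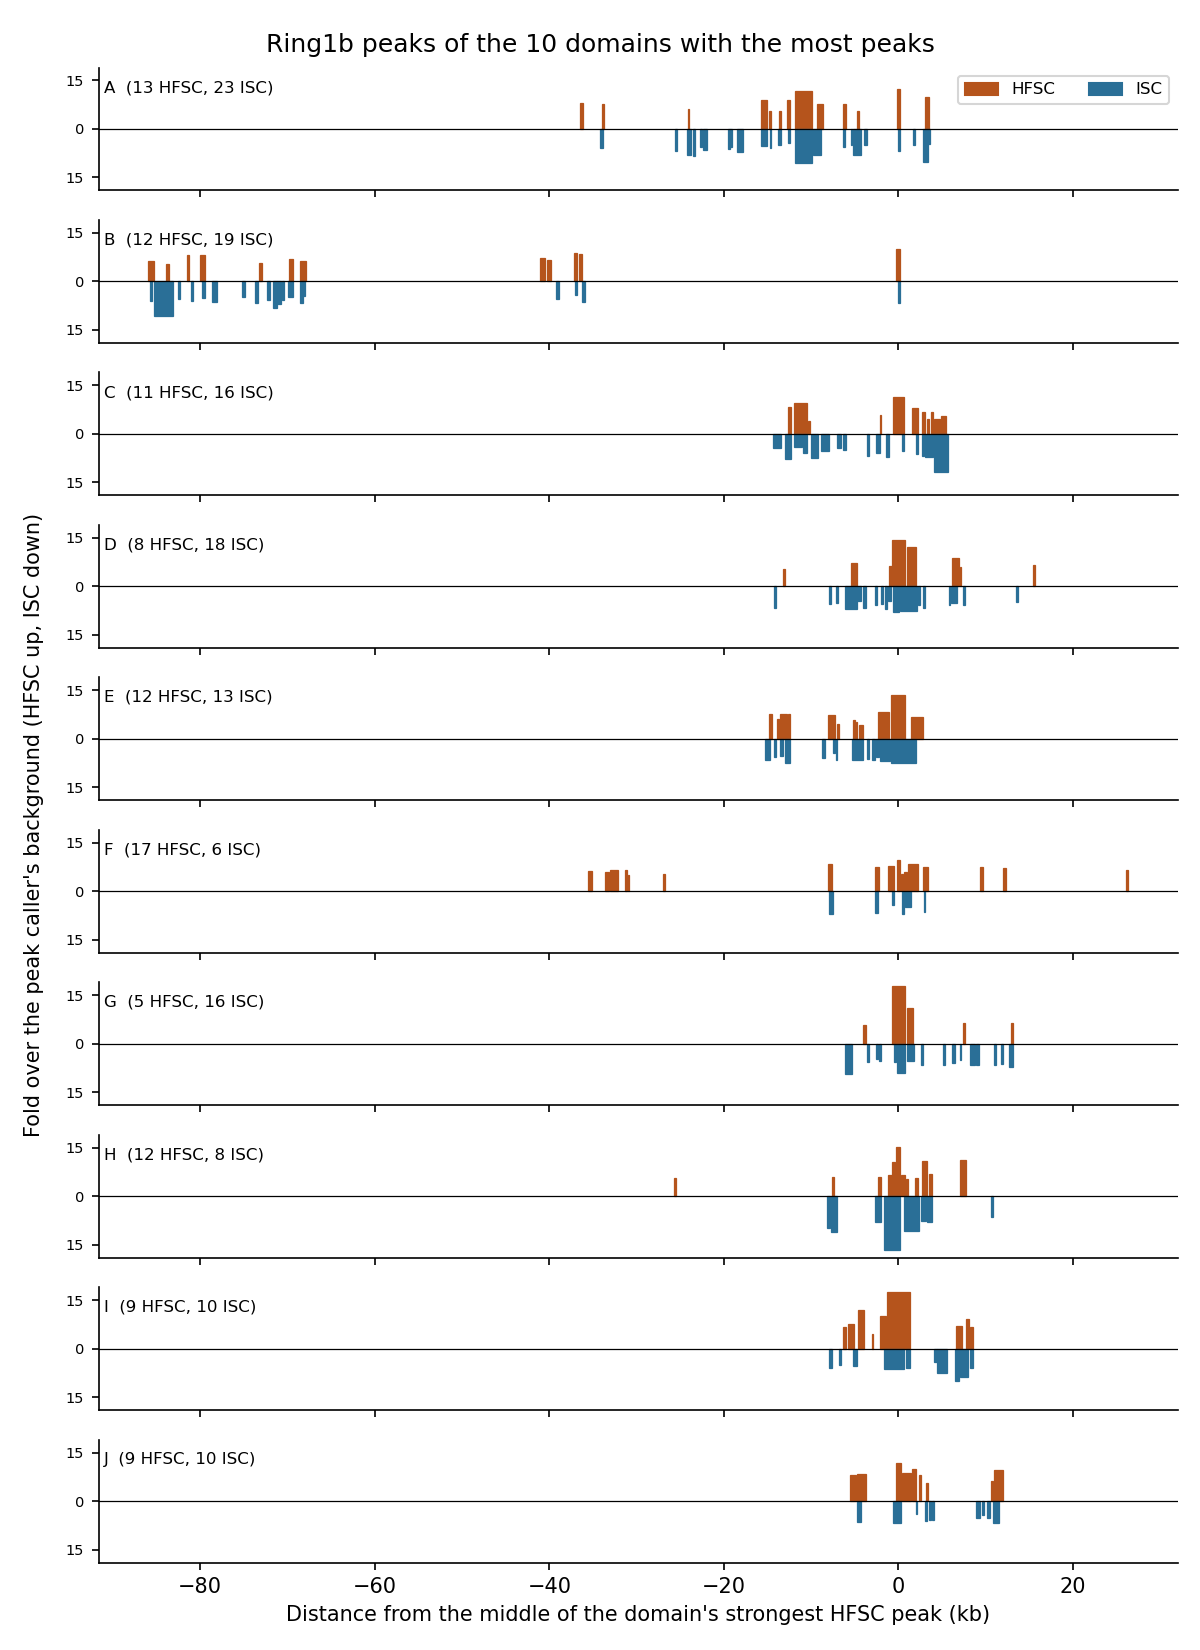
Peaks of domains A to J at their true width against the distance in kb from the middle of the domain's strongest HFSC peak, with the fold over the peak caller's background as the height (HFSC upward in orange, ISC downward in blue). Domain B falls into separate groups over 86.2 kb, and in domain F the HFSC peaks reach further than the ISC peaks on both sides.

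Domain F had the highest ratio of HFSC to ISC peaks, 2.83. Its 6 ISC peaks spanned 11 kb and all of them overlapped an HFSC peak. The 17 HFSC peaks spanned 61.9 kb, with 6 before the first and 3 after the last ISC peak. Those 9 peaks had folds between 5.11 (chr8:123609014-123609213) and 7.47 (chr8:123649435-123649684), where the other 8 had 5.25 (chr8:123640296-123640538) to 9.79 (chr8:123639860-123640240). The next highest ratios, 2.2 each, were those of chr10:42300001-42400000 and chr7:144500001-144600000, both with 11 HFSC and 5 ISC peaks. All 5 ISC peaks overlapped in either domain, beside 5 and 6 of the 11 HFSC peaks. On chromosome 10 the HFSC peaks covered 7138 bp and the ISC peaks 1853 bp, and the widest HFSC peak of any domain, chr10:42301672-42304615 with 2944 bp, lay there.

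At the other end stood domains G, D and A, with 0.312, 0.444 and 0.565 HFSC peaks per ISC peak. In domain G, 4 of 16 ISC peaks and 3 of 5 HFSC peaks overlapped, and in domain D 5 of 18 and 5 of 8. The extra ISC peaks of these domains lay mostly inside the stretch that the HFSC peaks spanned: 1 ISC peak of domain G, 1 of domain D and 0 of domain A lay outside it. Over all domains, 64 HFSC peaks (16.5%) lay beyond the outermost ISC peaks of their domain, in 31 domains. Of the ISC peaks, 31 (7.58%) lay beyond the outermost HFSC peaks, in 17 domains. The HFSC peaks of a domain spanned a median of 25.6 kb and the ISC peaks 15.8 kb.

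The strongest peaks of the lists overlapped in some domains and not in others. Fold here is the authors' own value per peak. Folds of both lists are set side by side and correlated, but no difference in their size between the lists is read. The site chr6:83019938-83021529 had the second highest fold of the whole HFSC list, 30.7, and the ISC peak on it, chr6:83019802-83021787, had the highest of the ISC list, 28.9. The summits of these peaks were 20 bp apart. Their domain, chr6:83000001-83100000, otherwise held moderate peaks, with median folds of 6.15 (9 HFSC peaks) and 5.68 (9 ISC peaks). A second shared maximum lay on the same chromosome: chr6:49167424-49168774 ranked 11 in the HFSC list at 22.1-fold, and the ISC peak over it ranked 4 at 20-fold.

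Other high peaks also lay on a peak of the other list. Ranks are given within each list, and since the lists differ in length no order between them is read. The peak chr7:138698739-138701003 ranked 4 among HFSC peaks at 26.5-fold, and the ISC peak that overlapped it ranked 71 at 9.83-fold. In domain H an ISC peak of rank 5 (16.6-fold, chr13:40824611-40826395) lay over an HFSC peak of rank 47 (15.1-fold). In 2 of the domains named for their strongest peaks, the strongest peaks of the lists were at different sites, each of them overlapping a peak of the other list. On chr11:95800001-95900000, which ends 100 kb before the left-out Hox window of chromosome 11, the HFSC peak chr11:95868189-95869571 (22.2-fold, rank 10) and the ISC peak chr11:95865285-95866100 (14.5-fold, rank 10) were 3173 bp apart. The first overlapped an ISC peak of 8.53-fold and the second an HFSC peak of 10.6-fold. On chr5:102000001-102100000 the HFSC peak chr5:102087347-102087809 (18.9-fold, rank 19) and the ISC peak chr5:102092986-102095112 (14.5-fold, rank 11) were 6795 bp apart. Here the first overlapped an ISC peak of 9.86-fold and the second an HFSC peak of 16-fold. In domain G the strongest HFSC peak, 17.8-fold, overlapped an ISC peak of 9.09-fold, and the strongest ISC peak, at 9.41-fold, lay 5494 bp away.

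In all, the strongest HFSC and the strongest ISC peak overlapped in 14 of 49 domains. In the other 35 their summits were 0.911 to 83.8 kb apart, with a median of 5.26 kb. Where they overlapped, the median distance between summits was 381 bp, and 2 of the 14 lay within 100 bp. With peaks of a list under 1 kb apart joined into 1, the strongest joined peaks overlapped in 25 of 49 domains. The fold of the strongest peak was 2.96 to 30.7 (median 11.8) in the HFSC list and 3.56 to 28.9 (median 8.65) in the ISC list. Across the 49 domains these maxima correlated at Spearman 0.56 and Pearson 0.72, where both values of a pair came from the same bin and, in 35 domains, from different sites. The highest maxima of both lists came from chr6:83000001-83100000 and the lowest of both from chr9:3000001-3100000. No correlation without these domains is given.

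Domain peaks had a higher median fold and a greater median width than their whole list, with medians close to those of the Hox peaks. The median fold of HFSC domain peaks was 7.1 (95% order-statistic interval 6.82 to 7.36), beside 7.1 (6.79 to 7.57) in the Hox windows, 6.3 (6.24 to 6.35) at all other HFSC peaks and 6.37 over the list. ISC domain peaks had a median of 5.95 (5.82 to 6.25), beside 6.2 (5.82 to 6.47) in the Hox windows, 5.68 (5.67 to 5.75) elsewhere and 5.75 over the list. These intervals treat peaks as independent and cover neither library nor animal. The bins were chosen for many called peaks in both lists. Whether that choice by itself favours peaks of higher fold and greater width was not tested. The curves of fold by location show the shift along most of the range, with the curves of the domains and of the Hox windows close to each other.

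**Figure D3:**
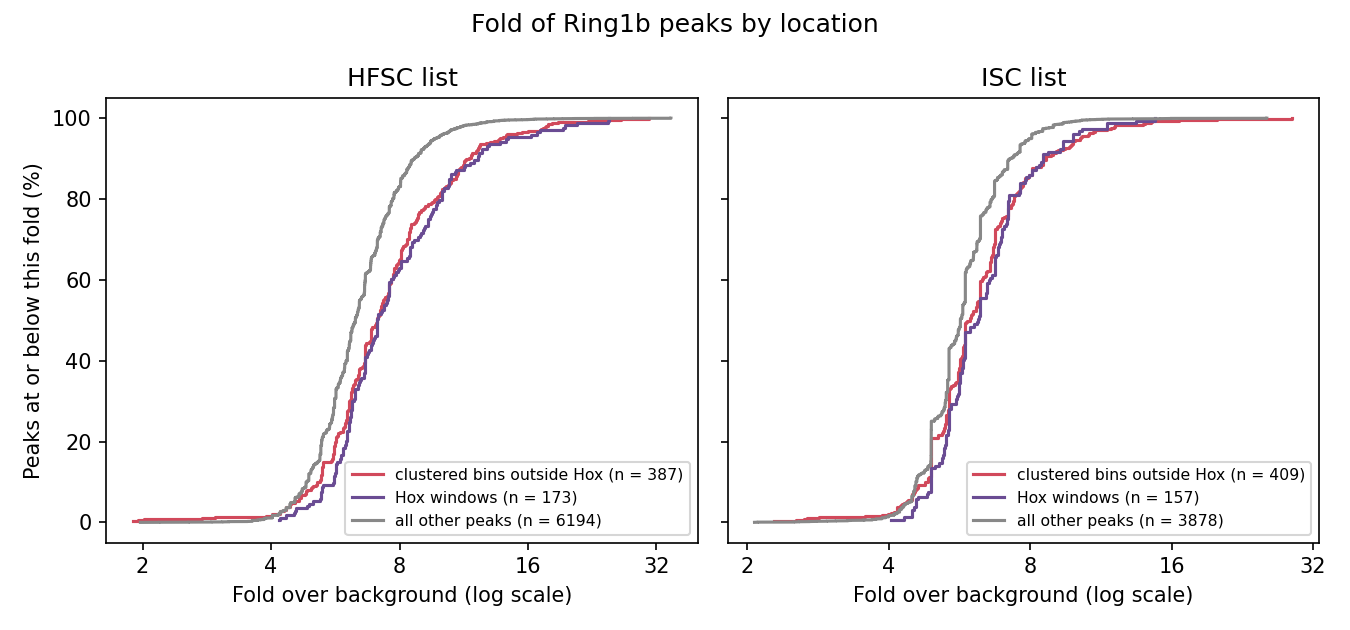
Percent of peaks at or below each fold over the peak caller's background (log scale) for the HFSC list (left) and the ISC list (right), in the domains (red), the Hox windows (purple) and all other places (grey). The red curves lie to the right of the grey ones over most of the range, with medians of 7.1 against 6.3 for HFSC and 5.95 against 5.68 for ISC.

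The top of each list held many domain peaks. Among the 101 HFSC peaks of highest fold (rank 100 was tied), 25 were in domains, 13 in the Hox windows and 63 elsewhere. Among the 100 highest ISC peaks the numbers were 32, 12 and 56. The domain shares were thus 24.8% and 32%, beside 5.73% of the whole HFSC list and 9.2% of the whole ISC list. Among the 501 highest peaks of each list they were 16.4% for HFSC and 17.6% for ISC. The median width was 368 bp (341 to 407) for HFSC domain peaks, against 344 bp in the Hox windows and 285 bp elsewhere. For ISC domain peaks it was 336 bp (309 to 367), against 375 and 268 bp. Peaks of at least 1 kb made up 11.6% of HFSC domain peaks and 9.29% of ISC domain peaks. In the Hox windows they made up 11% and 8.92%, and outside the domains and Hox windows 1.4% and 1.08%. Such broad peaks were found in 30 domains for HFSC, in 25 for ISC and in 17 for both. The widest was an ISC peak of 4764 bp, chr2:73108287-73113050, at 12.1-fold.

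Most domain peaks had a counterpart in the other cell type. An ISC peak overlapped 249 of 387 HFSC domain peaks by at least 1 bp, 64.3% (Clopper-Pearson 95% interval 59.3 to 69.1), where 25.5% of the whole HFSC list overlapped an ISC peak. An HFSC peak overlapped 248 of 409 ISC domain peaks, 60.6% (55.7 to 65.4), where 38.9% of the whole ISC list overlapped. Outside the domains and Hox windows the shares were 22.3% and 36%, and in the Hox windows 51.4% (43.7 to 59.1) and 54.8% (46.6 to 62.7). The rule asks for peaks of both lists in 1 bin, which places them near each other, so these shares are no independent evidence that the domains are common to both cell types.

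**Figure D4:**
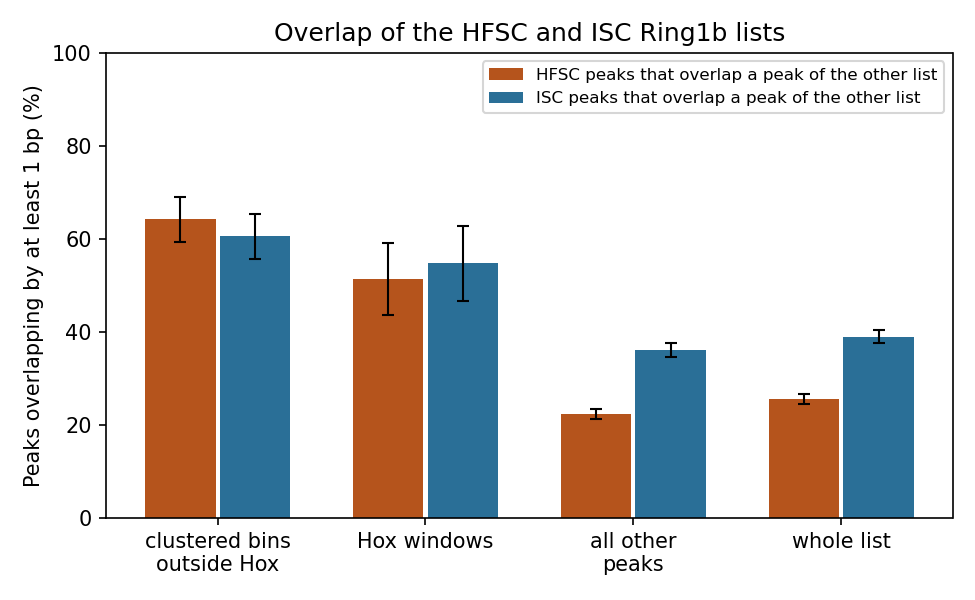
Percent of HFSC peaks (orange) and ISC peaks (blue) that overlap a peak of the other list by at least 1 bp, in the domains, the Hox windows, all other places and the whole list, with Clopper-Pearson 95% intervals as error bars. The domains stand at 64.3% and 60.6%, above the 22.3% and 36% of all other places.

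Each of the 49 domains had at least 1 overlapping peak. All HFSC peaks overlapped in 5 domains and all ISC peaks in 7. The lowest share was 1 of 6 in each list, on chr3:89100001-89200000, whose 12 peaks were spread over 73.1 kb. Because the median fold of domain peaks was higher, overlap was also read within 3 classes of equal size by fold over the whole list. Among HFSC domain peaks 73.4% of the high class (above 7.1), 56% of the middle and 54.7% of the low class (at or below 5.79) overlapped an ISC peak. Outside the domains and Hox windows the same classes gave 27.2%, 20.1% and 20.4%. Among ISC domain peaks the shares were 71.5% in the high class (above 6.16), 53.2% in the middle and 50% in the low class (at or below 5.34), against 44.7%, 32.5% and 31.5% elsewhere. In every class of either list the share was higher in the domains. The rule asks for peaks of both lists in 1 bin, so a higher share follows in part from the choice of the domains. Peak width, which was also greater in the domains, was not held equal within these classes. The high class of the list held 49.6% of HFSC and 45.5% of ISC domain peaks.

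Domain peaks without an overlap were mostly close to the other list. Of 138 such HFSC peaks, 72 (52.2%) lay within 1 kb of an ISC peak, and the median gap was 0.874 kb. Of 161 such ISC peaks, 104 (64.6%) lay within 1 kb of an HFSC peak, with a median gap of 0.685 kb. Over the whole lists, 11.6% of HFSC and 21.3% of ISC peaks without an overlap lay within 1 kb of the other list. The rule places at least 5 peaks of the other list in the same 100 kb, so short gaps follow in part from the choice of the domains. Counting overlap or a gap of at most 1 kb, 82.9% of HFSC and 86.1% of ISC domain peaks had a counterpart. In the Hox windows the shares were 75.1% and 83.4%, and over the whole lists 34.1% and 51.9%. The strongest exception was the HFSC peak chr3:66777083-66778072, at 15.5-fold with the nearest ISC peak 4059 bp away. The strongest ISC peak without an overlap, chr2:115887372-115888569 at 10.3-fold, lay 355 bp from an HFSC peak.

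With an overlap of at least 50% of the shorter peak required, the shares of overlapping domain peaks were 55.8% for HFSC and 52.1% for ISC. No share at this threshold is given for the Hox windows or the whole lists, whose shares above are at 1 bp and not comparable. In 216 pairs of mutual best partners in the domains, a median of 97.4% of the shorter peak was shared, and the HFSC peak was the wider one in 51.4%. Summits were a median of 149.5 bp apart, and 37% of pairs had them within 100 bp. In 72 pairs of the Hox windows the median distance was 148.5 bp and 31.9% were within 100 bp. In the 1318 pairs outside the domains and Hox windows the median distance was 114 bp and 44.8% were within 100 bp. The folds of the 216 pairs correlated at Spearman 0.19 and Pearson 0.5, those of the 72 Hox pairs at 0.41 and 0.56, and those of the 1318 pairs at 0.11 and 0.37.

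The crowding was largely made of peaks in close succession. Between neighbouring peaks of a list in a domain the median gap was 753 bp for HFSC (600 to 988) and 586.5 bp for ISC (475 to 764), and 55.6% and 64.4% of gaps were under 1 kb. In the Hox windows the medians were 698 and 536.5 bp. The rule asks for at least 5 peaks of each list in 100 kb, so short gaps follow in part from the choice. With peaks under 1 kb apart joined, the 387 HFSC peaks became 198 groups of peaks and the 409 ISC peaks 177. Over the whole lists, 6754 HFSC peaks became 5481 groups and 4444 ISC peaks 3617. A domain then had a median of 4 HFSC and 3 ISC groups, and 15 domains kept 5 or more groups in the HFSC list, 9 in the ISC list and 6 in both. Those 6 were domains A, B and D, chr3:99000001-99100000, chr8:87500001-87600000 and chr9:3000001-3100000, the last of which had the lowest folds of all domains; without it 5 remain. Domain F kept 9 HFSC groups with 4 ISC groups, while the 9 HFSC and 10 ISC peaks of domain I became 2 and 4. Whether a run of close peaks is 1 broad region of binding or several sites cannot be told from the lists.

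**Figure D5:**
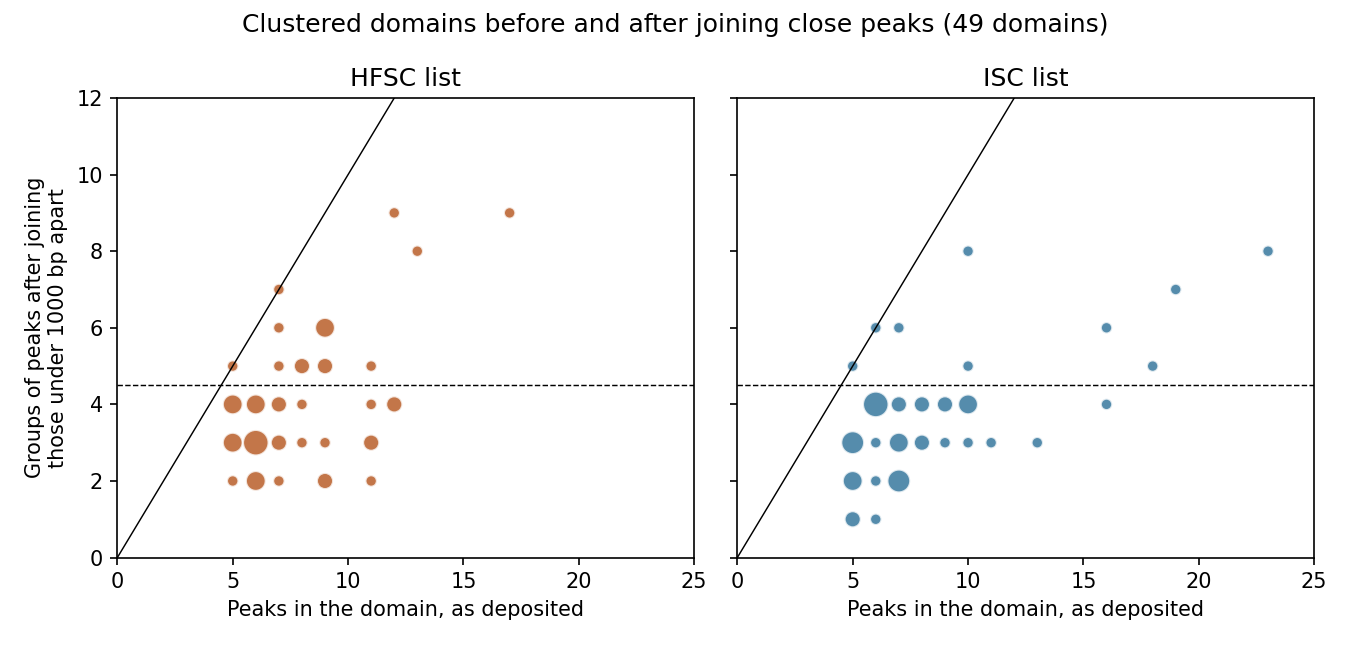
Peaks per domain as deposited (horizontal axis) against the number of groups left when peaks of a list under 1000 bp apart are joined (vertical axis), for HFSC (left) and ISC (right); the area of a circle is proportional to the number of domains. The solid line marks equal numbers and the dashed line the minimum of 5, which 15 domains still reach in the HFSC list and 9 in the ISC list.

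The domain chr9:3000001-3100000 stood apart from the others. Its 5 HFSC peaks had folds of 1.9 to 2.96 and its 7 ISC peaks 2.27 to 3.56, the lowest maxima of all 49 domains in both lists; the next lowest were 6.3 and 5.38. The fold of 1.9 was also the lowest of the whole HFSC list. The −log10 q of these peaks was nonetheless 6.89 to 10.7 in the HFSC and 8.78 to 17.7 in the ISC list, beside medians of 8.41 and 6.04 over all domain peaks. Without this domain 382 HFSC and 402 ISC peaks remained, with overlap shares of 64.4% and 60.9% and median folds of 7.11 and 5.98. No list of mm9 regions with artefactual signal was used here, and whether this domain is such a region was not tested.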

How the data were processed

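Per the submitters' processing notes, build mm9 was used and the tools named include Bowtie 1.2.2, Picard 1.62 and MACS2 2.1.1; the sources used here do not state what each did, with which settings or against which control. The authors deposited 1 peak list per ChIP sample. In it the score, the fold over the caller's background (a linear ratio), and the −log10 of p and q are the authors' own values per peak; the smallest −log10 q listed was 2.21 (HFSC) and 2.08 (ISC). The score was not used.

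Peaks were binned by midpoint and overlapped in Python 3.11.15 with pandas 2.3.3 and scipy 1.17.1, after a check on simulated peaks. Positions are 1-based on mm9. Shares carry exact Clopper-Pearson 95% intervals and medians binomial order-statistic intervals, both for counting error only. Classes of fold were set over the whole list.

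Named domains were those with the most peaks (10), the highest and lowest ratio of HFSC to ISC peaks (3 each), the strongest peaks (5 per list) and strongest peaks that do not overlap (3). Single peaks and domains beyond these were chosen after their values were seen. Members and rules were chosen with earlier results of these data known. The RNA-seq tables were not used: gene positions at hand were of build GRCm38, so no gene was assigned to a domain and no sequence is printed.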

Additional observations from a re-analysis of the deposited data

How the results depend on the processing

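Of 72 values recomputed, 52 stayed within 1.5 times (number of domains) or within the interval given in the text (shares and medians), and 20 moved. The number of domains, 49, was 76 with bins of 200 kb, 86 with at least 4 peaks, 25 with −log10 q of at least 5 and 6 with peaks under 1000 bp apart joined. The HFSC overlap share was 59.3% with 200-kb bins, 71.8% with peaks joined and 55.8% with an overlap of at least 50% of the shorter peak; the ISC share was 55.1% with 200-kb bins and 52.1% with that overlap. Median HFSC fold was 6.67 (200-kb bins), 7.57 (q threshold), 7.75 (HFSC list shortened to the length of the ISC list by q) and 6.33 (joined), and median ISC fold 6.68 (q threshold) and 6.58 (joined). Median HFSC width was 337 bp (200-kb bins), 431 bp (q threshold) and 446 bp (list shortened), and median ISC width 424 bp (q threshold) and 585 bp (joined). A q threshold and a shorter list keep the stronger peaks by construction, and a stricter overlap can only lower the shares. Joining keeps the highest fold and the full width of a group, and the joined values came from 6 domains only. The cause of the other shifts was not tested. With bins shifted by 50 kb there were 50 domains, which held 81.4% of the HFSC and 85.8% of the ISC members. With the shortened HFSC list, 40 domains held 278 HFSC and 339 ISC peaks. The setting without the chromosome 9 domain was chosen after seeing the data. No paired analysis was possible because the peak lists have 1 library per cell type, and no replicate could be left out. The planned RNA-seq comparison of genes in the domains, with its alternatives, was not run, since no gene positions on mm9 were at hand.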

Other observations

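The ISC list held 5 peaks on the mitochondrial chromosome, with folds of 2.07 to 3.09, and the HFSC list held 0 there. None of them entered a domain.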
